A study of Mus musculus with 2 samples.

Results

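The proteasome genes examined here are those whose symbols start with Psma, Psmb, Psmc, Psmd, Psme, Psmf or Psmg followed by a digit, leaving out the immunoproteasome catalytic subunits Psmb8, Psmb9 and Psmb10. The rule found 47 of the 32285 genes listed for each library. Of these, 46 encode subunits or partners of the proteasome: 16 of the core, 6 ATPases, 11 of the lid and base, 6 of the activator group and 7 assembly factors. The remaining gene, Psmc3ip, matched by its symbol but encodes a recombination cofactor. It was left out of the particle sums and stayed in the counts and medians of members where it had enough UMIs.

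The data came from single-cell RNA sequencing of 2 post-ischemic kidneys of 9-week-old male C57BL/6 mice, taken 24 h after bilateral ischemia-reperfusion injury (IRI). Both mice had the surgery. The control mouse received saline and the other received JPI-289, a poly(ADP-ribose) polymerase (PARP) inhibitor, at 100 mg/kg into the peritoneal cavity just before reperfusion. With 1 library per condition there is no replicate check, so no test between the conditions was possible, and every difference is one between these 2 libraries. The library totals were 38328760 unique molecular identifiers (UMIs) for the control and 35548396 for JPI-289, and 3748 and 5044 cells were kept. Their median UMI counts were 2059.5 and 1866, and 30 barcodes were called as cells in both libraries.

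The proteasome is the protease complex that degrades ubiquitin-tagged proteins. Its barrel-shaped core holds the catalytic sites, and a regulatory particle caps it: the ATPase ring unfolds the substrate and opens the gate, while the lid and base recognise ubiquitin and remove it. Activators can take the place of that cap, and assembly factors help the rings to form without staying in the finished complex. The transcription factors Nfe2l1 (Nrf1) and Nfe2l2 (Nrf2) are known to control proteasome genes through antioxidant response elements, and proximal tubule (PT) cells, which take up and degrade much filtered protein, are the main target of ischemic injury.

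Promoter sequences of members that hold the letters of such an element are shown. Whether these letters act as elements, or bear on the ratios between the libraries, was not tested. The element was searched as TGACNNNGC on both strands of the RefSeq windows from 250 bases before to 50 bases after the gene start (GRCm38.p6). Of the members, 39 had a window and 6 of them held the letters (15.4%), against 14% of 27025 genes with a window. Capitals mark the element, and each line reads 5′ to 3′ on the strand of the gene.

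Psmc6: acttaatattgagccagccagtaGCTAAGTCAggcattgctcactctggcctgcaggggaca
Psmb6: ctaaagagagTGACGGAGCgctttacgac
Psmb5: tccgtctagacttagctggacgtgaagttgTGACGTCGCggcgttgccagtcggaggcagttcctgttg
Psmd9: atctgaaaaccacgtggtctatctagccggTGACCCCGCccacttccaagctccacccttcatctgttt
Psme4: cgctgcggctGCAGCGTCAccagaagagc

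The Psmc6 stretch lies at chr14:45329574-45329635 on the plus strand, with its element on the opposite strand starting 227 bases before the gene start. The Psmb6 stretch (chr11:70525338-70525366, plus strand) has the element 9 bases before the start. The Psmb5 stretch (chr14:54618004-54618072, minus strand) has it 47 bases before, and the Psmd9 stretch (chr5:123228129-123228197, plus strand) 31 bases before. In Psme4 (chr11:30771758-30771786, plus strand) the element was read on the opposite strand and starts 7 bases before the start. The sixth member, Psmd12, is named only. In PT-like cells, described below, the log2 ratios of these 6 members ran from the lowest among the subunits, in Psme4, to that of Psmd12, a range of -0.63 to 1.14 on the log2 scale.

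PT-like cells, clusters named from their PT markers, numbered 1854 (control) and 1518 (JPI-289). Proteasome UMIs were higher in the JPI-289 library there, mostly in the core and the regulatory particle. The 46 members together made up 5367 UMIs per 1000000 (CPM, 95% Poisson interval 5317 to 5418) in the control and 10789 (10703 to 10876) in JPI-289, a log2 ratio of 1.01 (0.99 to 1.03). These intervals and those that follow cover counting error only. In single cells the median share of UMIs from the members was 0.562% in the control, with quartiles of 0.362% and 0.769%, and 0.948% in JPI-289, with quartiles of 0.685% and 1.23%.

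Of the 47 members, 44 had at least 20 UMIs over both libraries in PT-like cells, and 33 of these were at least 1.5-fold higher in JPI-289, or 75%, beside 20.7% of the 11243 genes with as many UMIs. At least 1.5-fold lower were 2 members, Psme4 and Psmc3ip, beside 35.4% of all genes. The median log2 ratio of the members was 0.96 (order interval 0.76 to 1.14), and that of all genes was -0.18, so relative to the typical gene the members stood 1.14 higher on the log2 scale. The 3 members under the minimum were Psmb11, a thymus-specific core subunit with no UMI in either library, Psma8, a testis-specific core subunit with 3 and 1 UMIs, and Psme2b with 1 and 1.

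The PT-like cells of each library fell into different clusters. Nearly all control cells lay in clusters 0, 12, 13 and 16, and nearly all JPI-289 cells in clusters 1 and 8. In cluster 1 the injured PT list scored highest (1.485, beside 0.995 for the PT list). The leading genes of cluster 1, such as Fgb, Fgg and Plin2, held none of the injured PT markers. In cluster 8 the PT list scored highest, and the injured PT markers Krt20 and Havcr1 were among the leading genes, beside Kap. The library and these cell states therefore cannot be told apart. Marker sums moved as well. The 18 PT markers summed to 18777 CPM in the control and 16812 in JPI-289, with 4 of 18 higher in JPI-289. The 9 injured PT markers summed to 8751 and 10448, with 6 of 9 higher. Of all genes 43.2% were higher, with a median log2 ratio of -0.18, and the marker sums were not corrected for that shift. Mitochondrial UMIs took 10.9% of the sum in the control and 6.29% in JPI-289, and scaling to nuclear genes alone gave 31 members at least 1.5-fold higher, beside 18.5% of all genes, and a median of 0.89 beside -0.25. The part of these differences in the proteasome values was not tested.

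**Figure D1:**
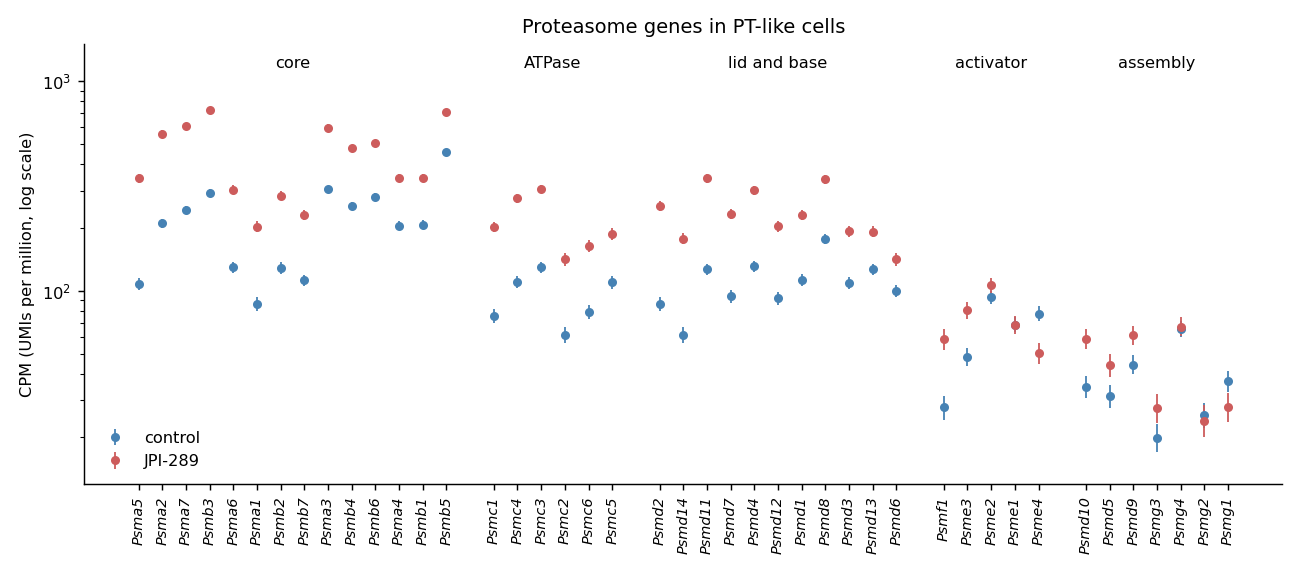
CPM (log scale) of the 43 subunit and partner genes with at least 20 UMIs in PT-like cells, grouped by particle and ordered by ratio within it. Points are the control (blue) and JPI-289 (red) library with 95% Poisson intervals. All 14 core genes, 6 ATPases and 11 lid and base genes lie higher in JPI-289, while the activator and assembly genes lie on both sides.

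The core particle summed to 3013 CPM in the control and 6239 in JPI-289 (log2 ratio 1.05, 1.03 to 1.07), and its 14 counted genes were all at least 1.5-fold higher. The outer alpha rings, which gate the entry, held the highest ratio: Psma5 was at 107.3 in the control and 343.1 in JPI-289, 3.20-fold higher. Psma2 was at 209.1 and 560.2, 2.68-fold higher.

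The beta rings carry the proteolytic sites. Psmb5, the chymotrypsin-like subunit and the target of bortezomib, had the most UMIs of the core and the lowest ratio in it: 458.6 in the control and 710.1 in JPI-289, a log2 ratio of 0.63 (0.57 to 0.70). Psmb6, the caspase-like subunit, was at 279.2 and 505.7 (0.86, 0.78 to 0.94), and Psmb7, the trypsin-like subunit, at 111.9 and 230.2 (1.04, 0.92 to 1.16). The 3 catalytic genes thus differed by unequal amounts, and the intervals of Psmb5 and Psmb6 did not overlap. Among the noncatalytic beta genes Psmb3 was at 292.4 and 726.3, 2.48-fold higher, and Psmb1 at 206.6 and 344, 1.67-fold higher.

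The ATPase ring summed to 565 and 1274 CPM (1.17, 1.12 to 1.23), with all 6 genes past the fold. Psmc1 had the highest ratio, at 75.98 in the control and 201.2 in JPI-289 (1.40, 1.26 to 1.55). Psmc4 followed at 110 and 275.9, 2.51-fold higher, and Psmc3 was at 129 and 305.2. Psmc5 had the lowest, at 109.5 and 186.5 (0.77, 0.64 to 0.90), and Psmc6 lay next to it at 78.91 and 163.9.

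The lid and base genes summed to 1214 and 2600 (1.10, 1.06 to 1.14), and 10 of 11 were past the fold. Psmd2, the large base scaffold, was at 86.25 in the control and 252.8 in JPI-289, 2.93-fold higher. Psmd14, the deubiquitinase of the lid, was at 61.42 and 176.9 (1.53, 1.37 to 1.68), and Psmd11, a lid scaffold, at 126.3 and 342.9. Psmd8, with the most UMIs of the group, was at 176.4 and 338.9. Psmd13 was just past the fold at 126.3 and 190.7, 1.51-fold higher, and Psmd6 was short of it at 99.59 and 140.8, 1.41-fold higher.

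Activator genes did not share one direction. Their sum was 315.8 CPM in the control and 364.7 in JPI-289 (0.21, 0.12 to 0.29). Of 5 genes, 2 were at least 1.5-fold higher and 1 at least 1.5-fold lower, beside 20.7% and 35.4% of all genes. Psme1 and Psme2, the interferon-inducible subunits of the cytosolic activator ring, were at 68.76 and 68.69 and at 92.98 and 106.4. Psme3, which forms the nuclear activator, was at 48.33 and 80.66 (0.74, 0.54 to 0.94). Psmf1, an inhibitor of the core, was at 27.77 and 58.54, 2.11-fold higher. Psme4, a large single-chain activator, was lower in JPI-289, at 77.81 in the control and 50.21 in JPI-289 (-0.63, -0.84 to -0.43).

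The assembly factors summed to 258.9 and 311.4 (0.27, 0.17 to 0.36). Psmd10 alone of 7 was past the fold, at 34.87 and 59.09, beside 20.7% of all genes. Psmd9 (44.29 and 61.26) and Psmd5 (31.44 and 44.23), which like Psmd10 chaperone the base, were 1.38-fold and 1.41-fold higher. The chaperones of the core rings were less uniform: Psmg1 was at 37.07 in the control and 27.91 in JPI-289 (-0.41, -0.70 to -0.12), Psmg2 at 25.45 and 23.93, Psmg3 at 19.94 and 27.55, and Psmg4 at 65.82 and 67.43. Activator and assembly genes together therefore took a smaller share of the members' UMIs in JPI-289: activators made up 5.88% in the control and 3.38% in JPI-289, and assembly factors 4.82% and 2.89%.

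Where levels were compared cluster by cluster, the order of the PT-like clusters followed the library. The control clusters were at 2190 (cluster 12), 4477 (cluster 16), 5303 (cluster 13) and 6847 (cluster 0) CPM for the 46 members. The JPI-289 clusters were at 9651 (cluster 1) and 11834 (cluster 8), above each of them. Cluster 14, with 210 JPI-289 cells and 4 control cells, had the PT marker Slc5a2 among its leading genes. As in cluster 1, the injured PT list scored highest in it (1.082), but its PT score (0.614) was too low for a name. Cluster 14 was at 6910, near cluster 0, and its median mitochondrial share of 17% was close to the 16.6% of control cluster 16. Counting it as PT-like left 28 members at least 1.5-fold higher, beside 19.1% of all genes, and a median of 0.83 beside -0.20.

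A few cells lay in a cluster made mostly of the other library. The 26 control cells in cluster 1, where the injured PT list scored highest, were at 8999 CPM (7927 to 10177). That was above each of the 4 control clusters, and the interval holds the 9651 of the JPI-289 cells around them. These control cells were shallow, with a median of 634 UMIs beside 1205 in those JPI-289 cells. The 14 JPI-289 cells in cluster 0, with a median of 661 UMIs, were at 14766 (13019 to 16683). The 7 control cells in cluster 8, with a median of 1893 UMIs, were at 6241 (4934 to 7790). Within cluster 1 the members' median log2 ratio was 0.11 (-0.28 to 0.37) beside -0.55 for all genes, and 10 of 43 were at least 1.5-fold higher, beside 15.6% of all genes, on a control sum of 28224 UMIs. The first step of cell calling alone, which takes barcodes by UMI count without regard to free RNA, left 697 control and 510 JPI-289 cells and gave a median of 1.03 with 35 of 44 members at least 1.5-fold higher, beside 22.6% of all genes. Restricting both libraries to cells with 1000 to 3000 UMIs gave 0.64 with 22 of 43, beside 19.1%. In this range every control cell was called by the second step, which compares barcodes with the free RNA profile. The first step took barcodes over 3338 UMIs in the control and over 2618 in JPI-289. The libraries were therefore not called alike in this setting.

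**Figure D2:**
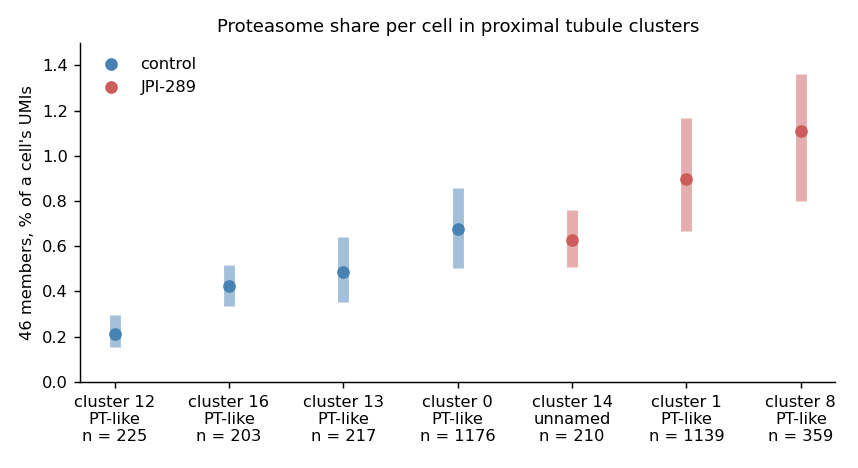
Share of a cell's UMIs taken by the 46 members (in %) in each proximal tubule cluster, with the median as a point and the quartiles as a bar, control in blue and JPI-289 in red. Medians run from 0.213% in control cluster 12 to 1.11% in JPI-289 cluster 8, and cluster 14 at 0.628% lies next to control cluster 0 at 0.678%.

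Genes that work with the proteasome were taken from 3 further lists. Of 10 associated subunits and cofactors in the files, 8 were higher in PT-like JPI-289 cells and 5 at least 1.5-fold, with a list median of 0.55, beside 43.2% and 20.7% of all genes. The ubiquitin receptor Adrm1 was at 115.6 in the control and 311.2 in JPI-289. Zfand5, which stimulates substrate turnover, was at 105.2 and 311.4, and Txnl1, a thioredoxin bound to the regulatory particle, at 111.8 and 335. The deubiquitinase Usp14 was at 36.46 and 63.62, and Pomp, the maturation factor of the core, at 252.4 and 384.1, 1.52-fold higher.

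The list of 5 genes that control proteasome transcription was split. At least 1.5-fold higher were 3 and as much lower were 2, beside 20.7% and 35.4% of all genes. Nfe2l2 was at 97.51 in the control and 299.4 in JPI-289 (1.618, 1.496 to 1.742). It was also higher outside PT-like cells. Its log2 ratio was 1.38 in distal nephron-like, 1.42 in EC-like and 0.69 in stroma-like cells, 0.51 in macrophages and 1.175 in neutrophils. Nfe2l1 was at 28.87 and 44.95 (0.64, 0.38 to 0.90), and Vcp, the ATPase that extracts it from the endoplasmic reticulum, at 195.4 and 483.4. The other two enzymes that activate Nfe2l1 were lower: Ngly1, the deglycosylating enzyme, was at 59.09 and 32.26, and Ddi2, its protease, at 41.23 and 25.38.

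Of 10 genes for ubiquitin, its E1 enzyme and shuttle factors, 9 were higher and 5 at least 1.5-fold, with a median of 0.59, beside the same 43.2% and 20.7%. Ubb, a polyubiquitin gene, was at 1507 CPM in the control and 2370 in JPI-289. Rps27a, which encodes ubiquitin fused to a ribosomal protein, was at 1686 and 2114, within the fold. Shuttle factors past it included Rad23b (83.44 and 165.8), Ubqln2 (19.33 and 48.39) and Ubqln4 (15.66 and 28.46). Of the immunoproteasome subunits, Psmb8 and Psmb9 had 14 and 13 UMIs in control and 4 and 1 in JPI-289 PT-like cells, and Psmb10 was at 10.15 and 13.78.

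In the control library the summed level of the members was highest in endothelial-like (EC-like) cells at 7337 CPM and stroma-like cells at 7276, whose intervals overlapped. Macrophages followed at 5768, then PT-like cells at 5367 and distal nephron-like cells at 5327, which overlapped as well, neutrophils at 2296 and red blood cells at 818.5. In JPI-289 PT-like cells came first at 10789, before EC-like cells at 8566. Stroma-like cells at 7147 and distal nephron-like cells at 6880 overlapped, and macrophages (6064), above both tubule classes in the control, came below them, before neutrophils (3503) and red blood cells (1586). Podocyte-like and lymphocyte-like cells had too few control cells, 12 and 8, for a ratio, and were at 3396 and 4651 in JPI-289. Barcodes with under 100 UMIs, taken as free RNA, held 4691 in the control and 6653 in JPI-289.

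**Figure D3:**
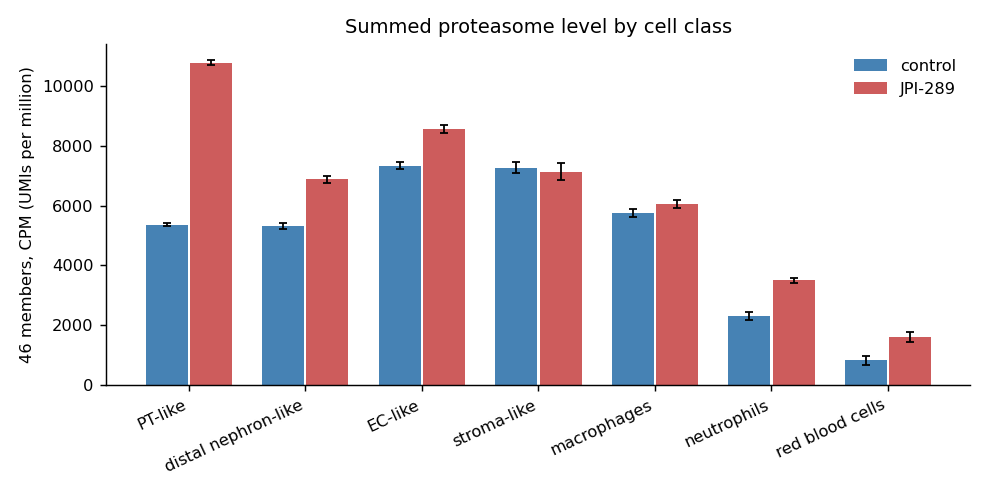
Summed CPM of the 46 members in each cell class, control in blue and JPI-289 in red, with 95% Poisson intervals as bars. PT-like cells go from 5367 to 10789, and neutrophils and red blood cells are lowest in both libraries.

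Distal nephron-like cells (512 and 689) were the other tubule class, and their members' median log2 ratio was 0.31 beside -0.12 for all genes. At least 1.5-fold higher were 7 of 43, or 16.3%, near the 15.2% of all genes, and 1 was at least 1.5-fold lower, beside 26.5%. By any amount 36 of 43 were higher, beside 42.9% of all genes. The core was at 2899 and 3712 (0.36, 0.31 to 0.41) and the lid and base at 1220 and 1755 (0.52, 0.45 to 0.60). Psmf1 was at 25.63 and 57.65, and Psmd9 at 25.09 and 50.87, 2.23-fold and 2.01-fold higher. Psmd10 was lower, at 47.45 in the control and 33.49 in JPI-289.

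In EC-like cells (524 and 578) the median was 0.18 beside -0.18, and 5 of 44 members were at least 1.5-fold higher, beside 14.9% of all genes. Another 5 were at least 1.5-fold lower, beside 31.6%, with Psmc3ip (17 and 3 UMIs) among them. Psma2 was at 265 in the control and 511.9 in JPI-289 (0.95, 0.80 to 1.11), and Psmf1 at 32.94 and 60.39. Psme2 was lower, at 177.8 and 113.4 (-0.65, -0.90 to -0.40), as was Psmd13, at 156 and 110.1. The immunoproteasome genes, which pair with Psme1 and Psme2 in antigen processing, were at least 1.5-fold lower in all 3 cases, beside 31.6% of all genes. Psmb8 was at 132.2 and 83.53.

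Macrophages (192 and 293) had a median of 0.07 beside -0.04, with 4 of 43 at least 1.5-fold higher, beside 20.7% of all genes, and 4 at least 1.5-fold lower, beside 26.9%. The red blood cell markers, mostly hemoglobin genes, summed to 59.8 CPM in control macrophages and 1432 in those of JPI-289, and their part was not tested. The activator sum was lower, at 508.9 in the control and 375.9 in JPI-289 (-0.44, -0.61 to -0.26). Psme1 was at 223.3 and 125.8 and Psme2 at 176.1 and 93.8, both lower, while Psme4 was at 28.64 and 57.44. Psmb8 was at 195.5 and 106.9, and Psmb10 at 110.4 and 64.71. Psma2 was at 233.4 and 368.6, 1.58-fold higher.

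Stroma-like cells (143 and 84) had a median of -0.06 beside 0.01, and 4 of 43 members were at least 1.5-fold higher, beside 25% of all genes. At least 1.5-fold lower were 7 members, beside 24.6%. Psmd11 was at 183.5 and 293.9 (0.68, 0.30 to 1.06). Psma5 was lower, at 200.3 in the control and 87.6 in JPI-289, with 155 and 31 UMIs, and so was Psme1, at 113.7 and 53.69. The 6 neutrophil markers summed to 9.05 CPM in control stroma-like cells and 670 in those of JPI-289, and their part was not tested.

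Neutrophils (198 and 656) had a low level in both libraries but the second-highest median of the classes with 40 or more members counted, 0.50 beside 0.09 for all genes. Its order interval (0.304 to 0.735) overlapped that of distal nephron-like cells (0.158 to 0.507). Relative to all genes the members stood 0.43 higher on the log2 scale in distal nephron-like cells and 0.41 in neutrophils. In neutrophils 17 of 40 were at least 1.5-fold higher, beside 24.9% of all genes, and 0 were as much lower, beside 20.4%. The core was at 1290 in the control and 2097 in JPI-289 (0.70, 0.57 to 0.83), and the lid and base at 530.1 and 756 (0.51, 0.31 to 0.72). Psma2 was at 90.23 and 257.8 (1.498, 1.044 to 2.02), from 40 and 419 UMIs. Psmb5 (133.1 and 118.7) and Psme2 (63.16 and 49.21) were within the fold. In red blood cells only 6 members had enough UMIs, of which 5 were at least 1.5-fold higher, beside 37.8% of all genes, from 117 and 366 UMIs in all. Free RNA was estimated at 16.9% of the UMIs of control red blood cells and 14% in JPI-289, which at its own member level amounts to 793 of their 818.5 CPM and 931 of 1586, so the control level is read as background and no difference is read from it. In neutrophils the same estimate was 741 of 2296 CPM and 852 of 3503.

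**Figure D4:**
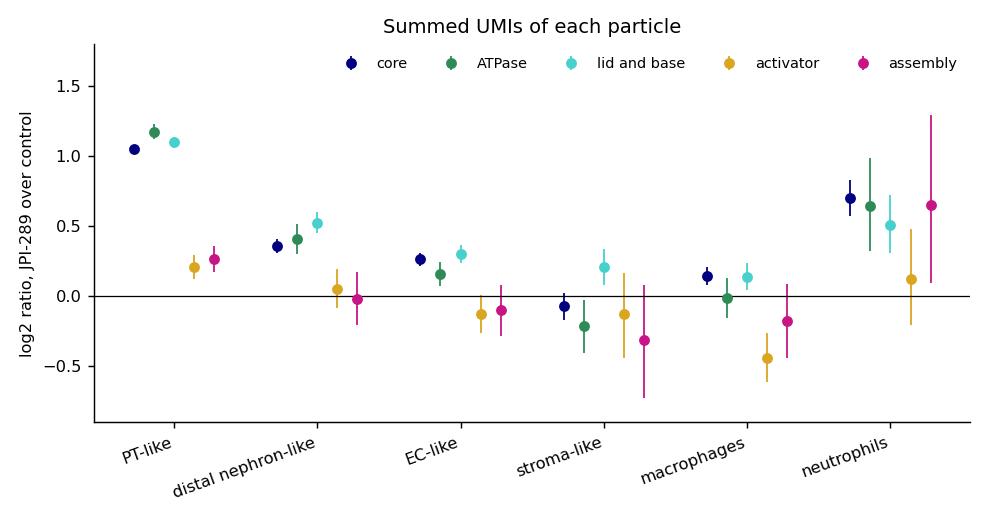
Log2 ratio, JPI-289 over control, of the summed UMIs of each particle in 6 cell classes, with 95% counting intervals. Core, ATPase and lid and base lie above 1 in PT-like cells and between -0.21 and 0.70 in the others, and the activator point lies below those of the core and of the lid and base in each class.

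Over the 6 classes other than red blood cells, 40 members were counted in every class. Of these, 13 (32.5%) had a log2 ratio above 0 in each, beside 18.4% of the 4709 genes counted in every class. They were Psma2, Psma3, Psmb3, Psmb4, Psmb7, Psmc6, Psmd1, Psmd3, Psmd4, Psmd9, Psmd11, Psmd12 and Psmf1. Psmb4 in stroma-like cells was not higher by level, at 271.4 CPM in the control and 271.3 in JPI-289. Its log2 ratio of 0.004 (-0.364 to 0.355) was above 0 only through the UMIs added before the ratio was taken. Intervals spanned 0 for others of the 13 as well, such as Psmd4 in neutrophils (0.029, -0.446 to 0.555). Psma2 and Psmf1 were past the fold in 5 of the 6 classes, and the share of all genes past it in as many was not counted. For Psmf1 in neutrophils this rests on 4 and 26 UMIs, with an interval that spans 0 (-0.702 to 2.805). The classes share their 2 libraries, so these are not independent repeats. Psmd10 and Psme2 were higher in PT-like cells, Psme2 by only 1.14-fold, and lower in each of the other 5. Counting intervals spanned 0 for both in neutrophils, for Psmd10 in macrophages and for Psme2 in distal nephron-like cells. The share of all genes with this pattern was not counted. These patterns were picked after the values were seen.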

How the data were processed

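The deposited values are unnormalised UMI counts of all barcodes of the 5′ libraries, which the authors obtained with Cell Ranger 5.0.1 (mm10, per the labels) without calling cells. They are counts of molecules, so they were not divided by gene length. Cells were called by UMI count and then, from 500 UMIs, against the free RNA profile (10000 simulations, 1% false discovery rate), and cells over 50% mitochondrial UMIs were removed. On data simulated with counting error alone, the counting intervals held the true ratio at about their stated level. That check cannot show how they fare with variation between cells or mice. On simulated cells, the second calling step found those of most classes but few control PT-like cells, whose profile is close to the control free RNA. Values from the first step alone therefore stand beside the PT-like results. Cells were clustered with scanpy 1.11.5 and leidenalg 0.10.2 (2000 variable genes without proteasome members, 30 components, resolution 1), with no correction between libraries. Scrublet marked 2 of 8792 cells as doublets and so did not work. Clusters were named from marker lists by a rule set after the clusters were seen: a leading list of at least 0.75 with 3 markers, or injured PT followed by PT. Clusters whose leading genes held no marker of the list stayed unnamed at low depth, or at a score under 3 unless both PT lists led. Clusters also stayed unnamed where the leading genes held more markers of another class, or platelet or urothelium markers. Unnamed clusters held 6.11% of control and 18.8% of JPI-289 cells. UMIs were summed per class and library. Log2 ratios had 0.5 UMIs added, needed 20 UMIs over both libraries, and carry exact binomial 95% intervals, and levels carry exact Poisson ones. Past the fold means at least 1.5-fold higher, or lower where stated. Named genes were, per particle, the 2 with most UMIs and the 2 highest and 2 lowest ratios from 100 UMIs, the catalytic and activator genes, and pathway genes past the fold or with most UMIs, of which some are not reported here. In other classes the rule took only the 2 highest and 2 lowest ratios from 100 UMIs over all particles. Some genes named there, such as Psmb8, Psmb10 and Nfe2l2, fall outside that rule. Members and lists were chosen with earlier results of these data known.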

Additional observations from a re-analysis of the deposited data

Results flagged for a closer look

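Several results pointed the other way from PT-like cells, by counting intervals that lay wholly on opposite sides of 0. None of these differences between classes was tested, since each class has 1 library per condition. Among the particles, the ATPase sum was lower in JPI-289 stroma-like cells (log2 ratio -0.21) and the activator sum in macrophages (-0.44), whereas both were higher in PT-like cells (1.17 and 0.21).

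Psma5, with the highest ratio in PT-like cells (1.68), was at -1.18 in stroma-like cells. Psmd10, a base chaperone, was at 0.76 in PT-like cells, -1.09 in EC-like cells (70 and 28 UMIs) and -2.04 in stroma-like cells (31 and 3 UMIs). Pomp was at 0.61 in PT-like and -0.69 in stroma-like cells. The stroma-like values rest on 84 JPI-289 cells.

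Some genes were lower in PT-like cells and higher elsewhere. Psme4 (-0.63 in PT-like cells) was at 0.83 in stroma-like cells and 0.99 in macrophages. Ddi2 (-0.70) was at 0.63 in EC-like cells, 0.91 in macrophages and 1.11 in neutrophils, the last from 7 and 59 UMIs. Ngly1 (-0.87) was at 1.23 in stroma-like cells, from 13 and 14 UMIs.

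Signal outside the compared cells also differed. Barcodes under 100 UMIs held 6653 CPM of members in JPI-289 and 4691 in the control. Cluster 6, which has no name and is led by the nuclear RNAs Neat1 and Malat1, was at 3969 in JPI-289 (369 cells) and 2112 in the control (99 cells).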

How the results depend on the processing

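No paired analysis was possible because each condition has 1 library. Each of the 17 settings for PT-like cells, the reported one included, kept the members' median above 0, from 0.11 to 1.14, with 10 to 37 members at least 1.5-fold higher. The share of all genes as much higher ran from 15.6% to 26.6%. The lowest values came from cluster 1 alone, and the highest from centring on all genes, which lifts members and all genes alike. Adding 1 CPM and free RNA subtraction moved no particle sum in PT-like cells beyond its counting interval, and the count minimum does not enter the sums. Filtering by Scrublet score moved no sum beyond its interval either. Since Scrublet did not work here, that setting cannot show whether doublets matter, and their part was not tested. Sums are given in the order core, ATPase, lid and base, activator, assembly, on the log2 scale. Centring on all genes gave 1.23, 1.35, 1.28, 0.39 and 0.44, and 0.36 for the EC-like median. Equal weight of each cell gave 0.78, 0.86, 0.87, 0.09 and 0.07, with a median of 0.73. Resolution 0.5 gave 0.91, 1.00, 0.97 and 0.10 for the first 4. For the first 3, the first calling step alone gave 1.12, 1.28 and 1.18, and scaling to nuclear genes 0.98, 1.10 and 1.02. At most 20% mitochondrial UMIs gave 1.01 for core and 1.05 for lid and base. Chosen after seeing the data were 4 settings. Cells with 1000 to 3000 UMIs gave 0.75, 0.74, 0.79, -0.027 and -0.077, with a median of 0.64. All control cells in that range came from the second calling step, so the libraries were not called alike there. Without cluster 12 the first 3 were 0.95, 1.11 and 1.06, and without cluster 1 they were 1.20, 1.30 and 1.20. With cluster 14 the first 4 were 0.91, 1.00, 0.97 and 0.10. In these 4 settings, in this order, the members' median stood 0.81, 0.90, 1.22 and 1.03 above that of all genes, beside 1.14 as reported. Cluster 1 alone, with 26 control cells, gave 0.22, 0.58, -0.21, -0.39 and -0.32. Its median was 0.11 (-0.28 to 0.37) beside -0.55 for all genes, and 10 members were at least 1.5-fold higher beside 15.6% of all genes. In it Psmb5 (-0.38), Psmb3 (-0.012), Psmb6 (-0.18), Psmc5 (-0.61), Psmd8 (-0.67), Psmd14 (-1.23), Psmd2 (-0.12), Psmd13 (-0.61), Usp14 (-1.85), Nfe2l1 (-1.48), Rad23b (-0.30), Ubqln2 (-0.86), Ubqln4 (-1.13) and Ddi2 (0.31) changed sign, but the counting intervals of 12 of these 14 genes span 0, and Psmd14 and Usp14 are the exceptions. The red blood cell median, on few members, was 1.72 with the first step alone and 1.805 with free RNA subtracted, and had no value at 100 UMIs. The causes were not tested.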

Other observations

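The balance between core genes and lid and base genes, with the ATPases left out, differed between clusters. In PT-like cells there were 2.48 core UMIs for each lid and base UMI in the control (2.42 to 2.54) and 2.40 in JPI-289 (2.35 to 2.45). Cluster 12, a PT-like control cluster whose leading genes include the long RNAs Gm26917 and Snhg11, had 0.854 (0.760 to 0.960). The unnamed cluster 6, led by Neat1 and Malat1, had 0.956 (0.772 to 1.18) in the control and 0.789 (0.732 to 0.851) in JPI-289. Among the named classes the ratio ran from 1.695 in JPI-289 stroma-like cells to 2.77 in JPI-289 neutrophils.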
